A study of Mus musculus with 8 samples.

Results

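The Ly6 and Ms4a genes are 2 families of small membrane proteins whose members mark leukocyte types, and 12 of them were in the authors' deposited table of liver macrophage genes that differed between mice on a western diet and mice on a normal diet. Members were all genes of that table whose symbol begins with Ly6 (4 genes) or Ms4a (8 genes), out of 2386 listed genes. The libraries hold liver macrophage RNA of C57BL/6 mice, a common inbred strain, fed a western diet (WD, 4 libraries) or a normal diet (ND, 4 libraries). The design gives 4 mice per diet; the labels give no other treatment, allele or age, nor what the diets contained or how the macrophages were isolated. The numeric titles of the libraries do not interleave between the diets, so the order of handling and the diet cannot be told apart. The table writes the groups as WDV and NDV without explaining the V, and these are read here as WD and ND. It holds 1 row per gene for the whole comparison, so no value per library, no library total and no replicate spread could be shown, and each error given is the standard error (SE) that the authors deposited. A gene was listed at an unadjusted p below 0.05 and an absolute log2 fold change above 1, so the members were selected on the same fold changes and p-values that are given here as a description. Of 18 resident Kupffer cell markers, among them Adgre1, Clec4f and Timd4, none was in the table, so these markers could not check the labelled cell type. All 15 sinusoidal endothelial markers fell in WD by the authors' deposited table. Its means and fold changes imply 101972 summed normalized counts of these markers in ND and 17441 in WD. The libraries thus held RNA of endothelial markers, and its part in the values of the members, higher or lower, was not tested. The marker lists were chosen with earlier results of these data known, so such counts are a description and not an independent test.

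Ly6 proteins carry a cysteine-rich domain and most are tethered to the cell surface by a lipid anchor. They are the antigens by which mouse blood cells have long been sorted, Ly6C for classical monocytes and Ly6G for neutrophils, and several are induced by interferons. Ms4a proteins cross the membrane several times and several act as partners of immune receptors. CD20, the product of Ms4a1, belongs to the B cell surface, and the product of Ms4a2 is the beta chain of the high-affinity IgE receptor of mast cells and basophils. In the mouse both families sit in gene clusters made by local duplication.

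Most listed members were higher in WD. By the authors' deposited table, 9 members rose and 2 fell at an adjusted p under 0.05, and 1, Ly6f, had no adjusted p. The higher ones were Ly6c2, Ly6i, Ms4a1, Ms4a2, Ms4a4b, Ms4a4c, Ms4a6b, Ms4a6c and Ms4a14, and the lower ones were Ms4a4d and Ly6g6d. The adjusted p-values imply that 17531 genes entered the adjustment, here called the genes tested. Genes without an adjusted p, such as Ly6f, are not among them. Of the 17531, 3.0% were listed as higher, 8.35% as lower and 11.4% as either with an adjusted p under 0.05. Because the members were taken from this same comparison, these shares say nothing about the families. The median log2 fold change of the 9 higher members was 1.60 in the authors' deposited table, and that of all 526 higher genes was 1.34. The member nearest to the limit on fold change was Ms4a1, and the one nearest to the limit on p was Ly6f (p = 0.0129), both by the authors' deposited table; genes beyond these limits have no value in it.

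**Figure D1:**
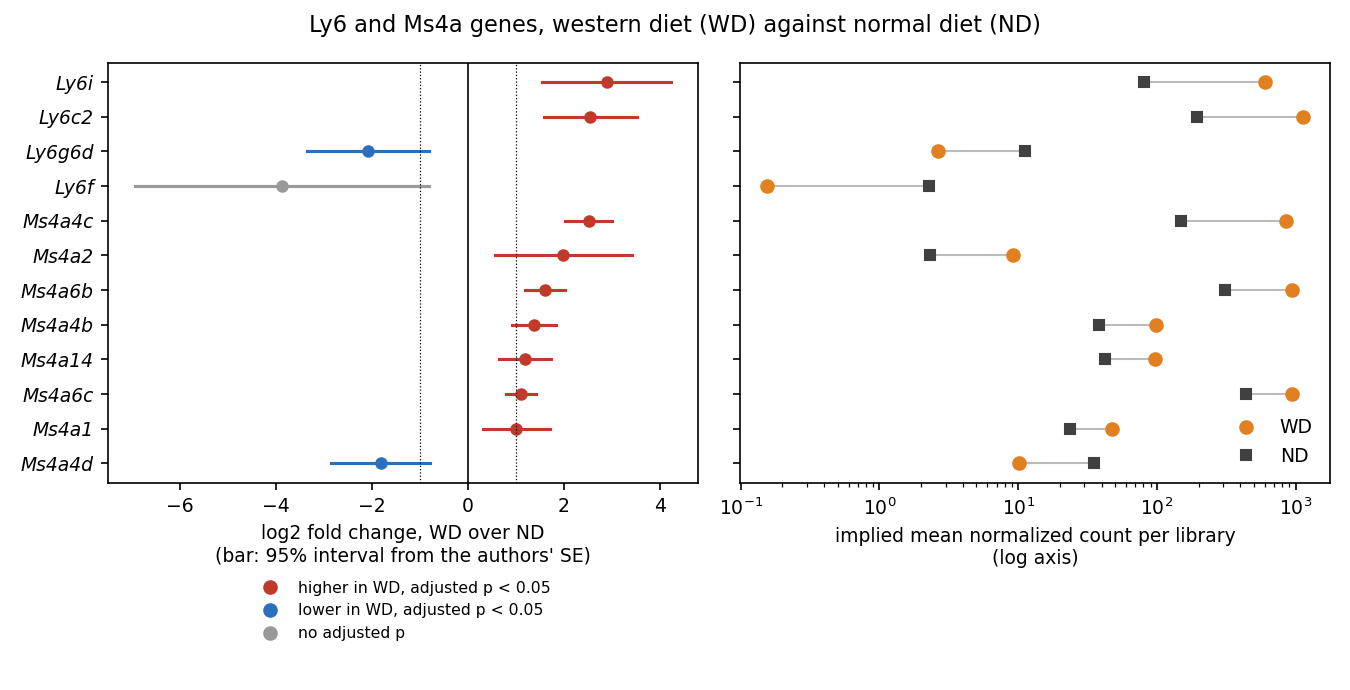
Left, log2 fold change (WD over ND) of each listed Ly6 and Ms4a gene with its 95% interval from the authors' SE, with dotted lines at the 2-fold limits of the table. Right, mean normalized counts of WD and ND implied by the authors' overall mean and fold change, on a log axis. The intervals of Ly6i, Ly6c2, Ms4a4c and Ms4a6b lie wholly above a 2-fold rise.

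Ly6c2 encodes a Ly6C antigen, the surface protein used to recognise classical monocytes (ENSMUSG00000022584, chromosome 15, 75108158 to 75111970, minus strand, mm10, coordinates from GENCODE M21). Its mean normalized count over all libraries was 660 in the authors' deposited table. That mean and fold change imply 1128 normalized counts per library in WD and 193 in ND, taking the 2 groups as equal in size. Ly6c2 rose 5.86-fold in WD in the authors' deposited table (log2 2.55 ± 0.50 SE, 95% interval 1.58 to 3.52, adjusted p 3.16e-06). In bulk RNA such as this, more cells of a type and more RNA per cell cannot be told apart.

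Ly6i, another gene of the same cluster (ENSMUSG00000022586, 74979534 to 74983430, minus strand), had the largest rise of the members. The authors' deposited table gave it a log2 fold change of 2.89 ± 0.68 SE (95% interval 1.55 to 4.23, adjusted p 1.92e-04), a 7.42-fold rise. The implied means were 599 normalized counts in WD and 80.7 in ND. The intervals of Ly6i and Ly6c2 overlap over most of their width, so the data do not order these rises.

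The SEs of these 2 genes were large for their counts. Among the 412 other listed genes with a mean count within 2-fold of that of Ly6i, 99.8% had a smaller SE in the authors' deposited table, and their median SE was 0.21. For Ly6c2 the share was 97.0% of 302 genes, with a median SE of 0.20 in the authors' deposited table. By contrast, the SE of Ms4a4c, at a mean count of 500, was 0.25 in the authors' deposited table, and 71.8% of 341 genes of like count had a smaller one. Which libraries made the estimates of Ly6i and Ly6c2 less precise was not analysed here, since the table has no value per library.

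**Figure D2:**
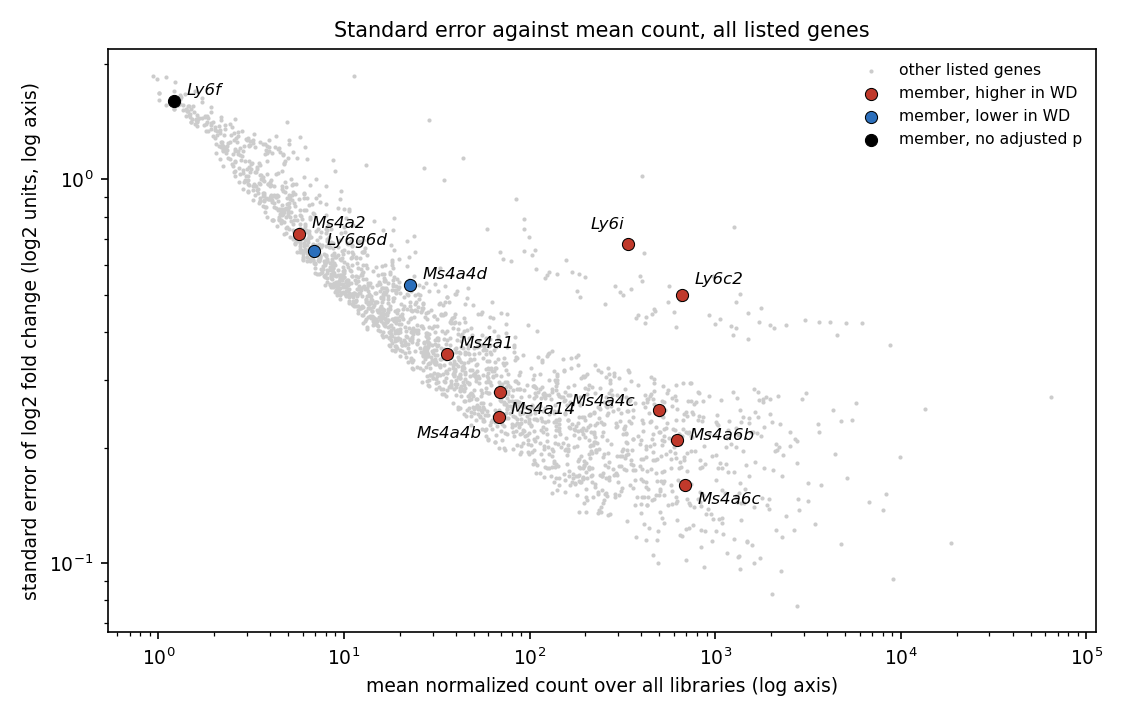
Authors' SE of the log2 fold change against the mean normalized count of all 2386 listed genes, both on log axes, with the Ly6 and Ms4a genes named. Ly6i (SE 0.68) and Ly6c2 (SE 0.50) lie far above genes of like mean count, whereas Ms4a4c (SE 0.25) and Ms4a6b (SE 0.21) lie close to them.

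The other listed Ly6 genes had negative fold changes at very low counts. Ly6f (ENSMUSG00000022583, chromosome 15, 75268421 to 75272235, plus strand) had a mean of 1.22 normalized counts and a log2 fold change of -3.88 ± 1.6 SE in the authors' deposited table, with no adjusted p. Ly6g6d, a Ly6 gene of the major histocompatibility complex region (ENSMUSG00000073413, chromosome 17, 35071443 to 35078065, minus strand), had a 4.24-fold fall in the authors' deposited table (log2 -2.08 ± 0.65 SE, adjusted p 0.00662). Its implied means were 2.63 normalized counts in WD and 11.2 in ND. Ly6g6d overlaps Ly6g6e on the opposite strand by 1164 bases, and it is not stated whether the counting used strand, so reads in that overlap cannot be assigned. Of 19 Ly6 genes in the family list, 15 were not in the table, among them Ly6c1, Ly6a, Ly6e and the neutrophil antigen gene Ly6g.

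Ly6c2 and Ly6f, which lie in 1 cluster with Ly6g between them and had fold changes of opposite sign, have similar promoters. They are shown because they are the alike pair of Ly6 promoters whose genes had opposite signs; Ly6f has no adjusted p. The windows run from 250 bases before to 50 bases after the RefSeq start (GRCm38.p6), 5′ to 3′ on the strand of the gene, for Ly6c2 from chr15:75111922-75112221 on the minus strand and for Ly6f from chr15:75268171-75268470 on the plus strand. Capitals mark the longest run of bases that both windows hold, which is 36 bases long.
Ly6c2: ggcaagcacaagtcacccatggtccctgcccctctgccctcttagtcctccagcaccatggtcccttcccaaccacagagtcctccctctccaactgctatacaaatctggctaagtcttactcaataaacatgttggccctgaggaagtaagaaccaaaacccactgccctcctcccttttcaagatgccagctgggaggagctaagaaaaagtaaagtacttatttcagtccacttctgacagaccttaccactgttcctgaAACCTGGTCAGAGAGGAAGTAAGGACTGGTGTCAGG
Ly6f: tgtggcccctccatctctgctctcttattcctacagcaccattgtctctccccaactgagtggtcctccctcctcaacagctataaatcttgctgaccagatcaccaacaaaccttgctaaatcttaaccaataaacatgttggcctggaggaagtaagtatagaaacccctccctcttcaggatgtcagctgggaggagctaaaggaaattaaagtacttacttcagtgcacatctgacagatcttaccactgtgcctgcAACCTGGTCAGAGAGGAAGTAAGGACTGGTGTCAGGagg
A local alignment of the 2 windows covered 305 columns with 75.7% identical bases. Both windows held GAGGAA, 1 form of the PU.1 binding site, at 2 places, which began at bases 143 and 277 of the Ly6c2 window and at bases 149 and 274 of the Ly6f window. The second of each lies inside the capitals. TATAAA was in the Ly6f window at base 82 and was not in the Ly6c2 window. A match of these letters is a description and does not show that a factor binds.

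Near-identical neighbours limit how far reads can be assigned within the Ly6 cluster. The longest coding transcript of Ly6c2 was 97.6% identical to that of Ly6c1, its closest relative, over 822 aligned bases. Of all 50-base windows of the Ly6c2 transcript, 33.0% also occurred in a transcript of another gene, and of its 150-base windows 5.79% did, all of the latter in Ly6c1. Ly6i shared 4.97% of its 50-base windows with other genes, chiefly Ly6a, and none of its 100-base windows. No 50-base window of Ly6f or Ly6g6d occurred in another gene. Neither the read length nor the handling of reads with several matches is known here, so the Ly6c2 value is uncertain to the extent that Ly6c1 reads were counted with it or lost with it.

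Genes with other symbols also carry the Ly6 domain. By the authors' deposited table, 3 of 19 such genes fell (15.8%), none rose and 1 was listed without passing, while 15 have no value in it. Of all 17531 genes tested, 8.35% were called lower and 3.0% higher, and the difference from these shares was not tested. Gpihbp1, which carries lipoprotein lipase across capillary endothelium and lies 324 kb beyond Ly6f (chromosome 15, 75596628 to 75599481), had an 8.55-fold fall in the authors' deposited table (log2 -3.10 ± 0.25 SE, adjusted p 2.15e-34). Its implied means were 413 normalized counts in WD and 3527 in ND. Cd59a, an inhibitor of the complement membrane attack complex, stood at log2 -3.18 ± 0.19 and Lypd6 at log2 -4.63 ± 0.84 by the authors' deposited table. Cd59b, the duplicate of Cd59a, was listed at -2.11 ± 0.89 with an adjusted p of 0.0591 in the authors' deposited table.

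Ms4a4c was the most precisely measured of the large rises. It belongs to the Ms4a4 subgroup, and its transcript is used as a mark of mouse inflammatory monocytes (ENSMUSG00000024675, chromosome 19, 11404770 to 11427246, plus strand). The authors' deposited table gave a 5.72-fold rise in WD (log2 2.52 ± 0.25 SE, 95% interval 2.03 to 3.0, adjusted p 2.92e-22), the smallest p-value of the 12 members and the 7th smallest among the 706 listed genes with a positive fold change. Its implied means were 851 normalized counts in WD and 149 in ND. Ms4a4b, the next gene along the chromosome and a T cell protein in mice (11443553 to 11467055), rose 2.59-fold from a lower level in the authors' deposited table (log2 1.37 ± 0.24 SE, adjusted p 8.34e-08). The implied means of Ms4a4b were 99.2 normalized counts in WD and 38.3 in ND. The third listed gene of the subgroup, Ms4a4d (11536801 to 11558467), had a 3.53-fold fall in the authors' deposited table (log2 -1.82 ± 0.53 SE, adjusted p 0.00309). Its implied means were 10.1 normalized counts in WD and 35.5 in ND. Ms4a4a was not listed. Of the 50-base windows of the Ms4a4c transcript, 8.48% also occurred in another gene, chiefly Ms4a4b, and none of its 150-base windows did.

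Both Ms4a6 genes of the table rose, with smaller fold changes than Ms4a4c, a difference that was not tested. Ms4a6b, whose product associates with a costimulatory receptor of T cells (ENSMUSG00000024677, 11516512 to 11531256, plus strand), rose 3.04-fold by the authors' deposited table (log2 1.60 ± 0.21 SE, 95% interval 1.19 to 2.02, adjusted p 7.79e-13). Its implied means were 937 normalized counts in WD and 308 in ND. Ms4a6c (ENSMUSG00000079419, 11469366 to 11482192, plus strand) rose 2.16-fold by the authors' deposited table (log2 1.11 ± 0.16 SE, 95% interval 0.79 to 1.42, adjusted p 1.50e-10). Implied means of Ms4a6c were 940 normalized counts in WD and 436 in ND. The longest coding transcripts of Ms4a6b and Ms4a6c differ in length (2680 and 1841 bases), so the counts of the 2 genes were not compared with each other. Ms4a6d was not listed.

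The paired Ms4a genes that rose also have paired promoters, shown here for Ms4a4c with Ms4a4b and for Ms4a6b with Ms4a6c because each pair moved in 1 direction. All 4 windows are on the plus strand of chromosome 19 in GRCm38.p6 and run as those above, chr19:11407411-11407710 for Ms4a4c, chr19:11443308-11443607 for Ms4a4b, chr19:11518309-11518608 for Ms4a6b and chr19:11469118-11469417 for Ms4a6c. Capitals mark a run of bases shared by the 2 windows of a pair, in the second pair the longest, of 48 bases, and in the first pair the one nearer the 5′ end of 2 equally long runs of 20 bases.
Ms4a4c: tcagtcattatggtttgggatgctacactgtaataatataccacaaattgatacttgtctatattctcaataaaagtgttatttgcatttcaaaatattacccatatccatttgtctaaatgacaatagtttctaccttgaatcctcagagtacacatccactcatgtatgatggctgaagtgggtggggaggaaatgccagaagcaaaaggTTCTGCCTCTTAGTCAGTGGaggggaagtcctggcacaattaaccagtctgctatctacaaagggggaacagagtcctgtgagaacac
Ms4a4b: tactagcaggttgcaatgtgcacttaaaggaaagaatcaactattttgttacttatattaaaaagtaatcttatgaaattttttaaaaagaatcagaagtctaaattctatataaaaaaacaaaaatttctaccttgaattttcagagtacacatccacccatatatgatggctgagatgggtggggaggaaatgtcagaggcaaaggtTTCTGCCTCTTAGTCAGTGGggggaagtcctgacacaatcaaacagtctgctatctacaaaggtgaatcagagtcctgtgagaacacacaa
Ms4a6b: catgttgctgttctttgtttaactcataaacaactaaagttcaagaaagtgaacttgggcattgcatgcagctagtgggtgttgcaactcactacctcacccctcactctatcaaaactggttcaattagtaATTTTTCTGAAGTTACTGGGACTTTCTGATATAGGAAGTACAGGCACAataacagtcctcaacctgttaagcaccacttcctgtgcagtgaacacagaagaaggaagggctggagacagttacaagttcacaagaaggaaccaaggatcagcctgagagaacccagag
Ms4a6c: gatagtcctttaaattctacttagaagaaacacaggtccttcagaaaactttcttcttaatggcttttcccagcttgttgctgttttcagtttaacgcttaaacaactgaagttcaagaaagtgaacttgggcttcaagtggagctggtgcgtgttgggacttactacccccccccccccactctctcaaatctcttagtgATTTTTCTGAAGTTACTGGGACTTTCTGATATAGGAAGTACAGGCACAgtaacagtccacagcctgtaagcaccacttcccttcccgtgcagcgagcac
The Ms4a4c and Ms4a4b windows aligned over 178 columns with 89.3% identical bases, and the Ms4a6b and Ms4a6c windows over 234 columns with 82.5%. The window of Ms4a4d, the subgroup member that fell, aligned with that of Ms4a4b over 19 columns and with that of Ms4a4c over 23 columns. It aligned with that of Ms4a6c over 28 columns. Windows of genes that rose aligned as briefly between the subgroups, Ms4a4c with Ms4a6b over 26 columns and Ms4a4b with Ms4a6c over 22. Whether likeness of windows goes with direction was not tested. GAGGAA was in the windows of Ms4a4c at base 190 and of Ms4a4b at base 187, and not in those of Ms4a6b, Ms4a6c and Ms4a4d. Shorter or other forms of the PU.1 site were not searched, so windows without GAGGAA may still hold one.

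RefSeq promoter windows were found for 10 of the 12 members, the exceptions being Ly6i and Ms4a1. GAGGAA on either strand was in a window of 6 of the 10 (Ly6c2, Ly6f, Ly6g6d, Ms4a14, Ms4a4b and Ms4a4c) and in 28.3% of all 32817 mouse windows of the same length. Ly6c2 has 2 windows and Ly6g6d has 3, which raises the chance of a match. The interferon response motif searched, 2 copies of GAAA with any 2 bases between them, and the STAT motif TTCNNNGAA were in no window of the 10, against 3.43% and 8.29% of all windows. TATAAA was in those of Ly6f, Ms4a14 and Ms4a4b, and in 13.6% of all windows. No match of 1 motif overlapped a match of another in these windows.

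The remaining Ms4a genes that rose were at low or middling counts. Ms4a14 (ENSMUSG00000099398, 11301249 to 11314454, minus strand) stood at log2 1.19 ± 0.28 SE with an adjusted p of 1.68e-04 in the authors' deposited table. Its implied means were 96.8 normalized counts in WD and 42.5 in ND. Ms4a1, the CD20 gene of B cells (ENSMUSG00000024673, 11249675 to 11266241, minus strand), rose 2.0-fold by the authors' deposited table (log2 1.0 ± 0.35 SE, 95% interval 0.31 to 1.70, adjusted p 0.0196), with implied means of 47.7 normalized counts in WD and 23.8 in ND. Ms4a2, the IgE receptor beta chain gene (ENSMUSG00000024680, 11615523 to 11623719, minus strand), stood at log2 1.99 ± 0.72 SE with an adjusted p of 0.0237 in the authors' deposited table. Only 9.18 normalized counts in WD and 2.31 in ND are implied for Ms4a2, and its 95% interval ran from 1.49-fold to 10.6-fold. Of the 50-base windows of the Ms4a2 transcript 2.69% also occur in Ms4a4b, and of its 100-base windows 0.567%. How far Ms4a4b reads entered the low Ms4a2 count is not known here.

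All 8 listed Ms4a genes lie in the cluster on chromosome 19, within 374 kb. GENCODE M21 annotates 19 Ms4a genes there over 679 kb, of which, by the authors' deposited table, 7 rose, 1 fell and 11 have no value. Ms4a4c, Ms4a4b, Ms4a6c, Ms4a6b and Ms4a4d follow one another without an unlisted Ms4a gene between them. Ms4a4d, at the end of this run, fell, while its 4 neighbours on that side rose. The cluster on chromosome 15 holds 11 Ly6 genes over 805 kb, of which 2 rose, 1 had no adjusted p and 8 were not listed. Ly6i and Ly6c2 are separated there by Ly6a and Ly6c1, neither of which was listed.

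**Figure D3:**
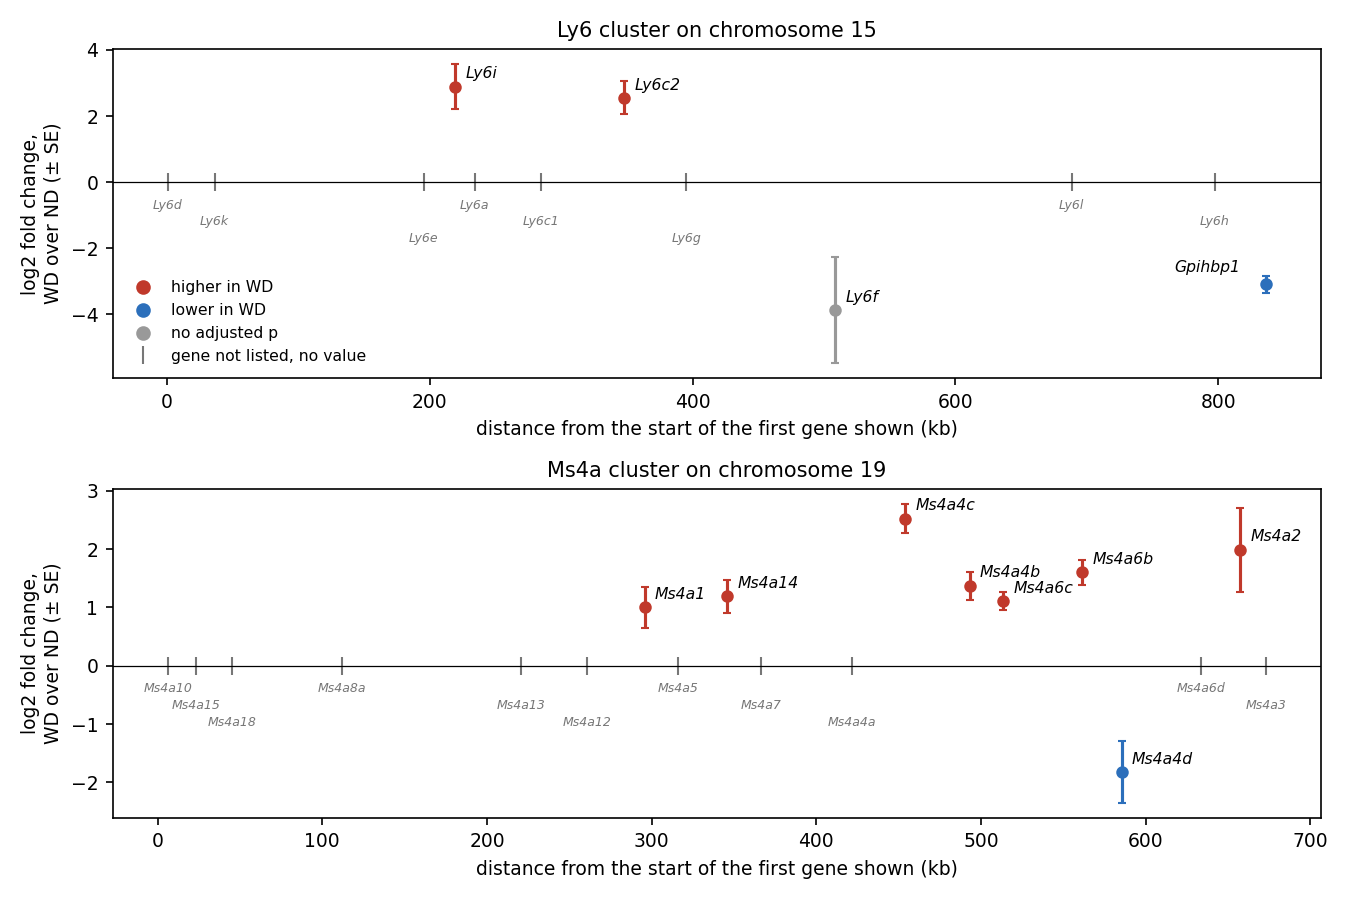
Log2 fold change (WD over ND, ± SE) of listed genes by distance along the Ly6 cluster with Gpihbp1 (top) and the Ms4a cluster (bottom). Ticks on the zero line mark family genes that were not listed and have no value. In the Ms4a cluster a higher and a lower gene stand side by side, Ms4a6b (1.60) and Ms4a4d (-1.82).

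Other listed genes lay near the members. Within 1 Mb of any member 24 further genes were listed, of which the authors' deposited table has 11 higher and 10 lower in WD with a called difference. BE692007, a non-coding transcript, overlaps Ms4a6c on the opposite strand by 12027 bases, and it rose with Ms4a6c, at log2 1.15 ± 0.23 SE in the authors' deposited table. Of the 150-base windows of the Ms4a6c transcript, 49.7% also occur in BE692007, so without strand their reads cannot be told apart. At 50 bases the share was 56.9% over all other genes and 55.4% for BE692007 alone. The unlisted antisense gene 4930526L06Rik covers all 16567 bases of Ms4a1. Gm8369, 3.75 kb from Ms4a6c, stood at log2 1.07 ± 0.43, and Gm336 at log2 2.04 ± 0.65 by the authors' deposited table. Cd6, which encodes a T cell surface protein, 420 kb from Ms4a1, stood at 1.68 ± 0.56 in the authors' deposited table. Around Ly6g6d the nearest listed gene was Ddah2, 9.35 kb away, at -2.87 ± 0.21 in the authors' deposited table, and Msh5, Sapcd1 and Vwa7 within 200 kb of it were also lower by the authors' deposited table. H2-Eb2 (1.52 ± 0.32) and Notch4 (-2.84 ± 0.18), both within 1 Mb of Ly6g6d, had opposite signs in the authors' deposited table.

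The members spanned most of the range of mean counts of the listed genes. Ly6i ranked 51st by fold change among the 706 genes with a positive value in the authors' deposited table, and 83.3% of all listed genes had a lower mean count. Ly6c2 ranked 73rd, with 90.9% of listed genes below its mean count, and Ms4a4c ranked 74th, with 87.7% below, both by the authors' deposited table. Ms4a6b ranked 262nd at a mean count of 622 and Ms4a6c 560th at a mean count of 688, again by the authors' deposited table.

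**Figure D4:**
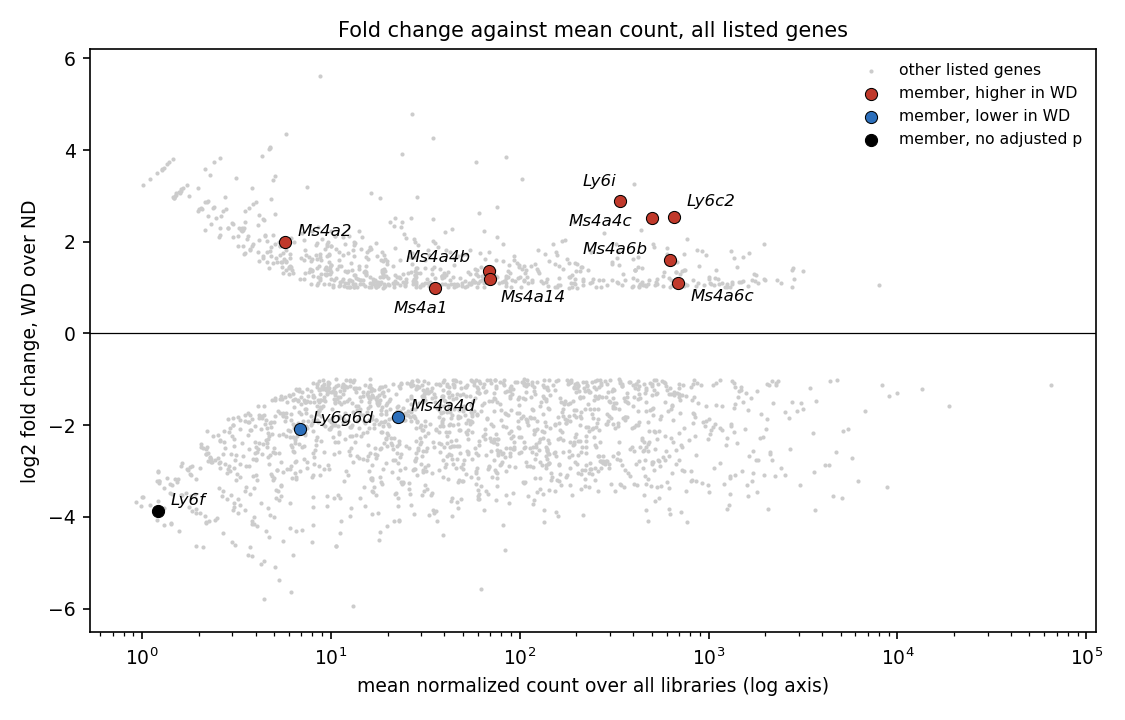
Log2 fold change (WD over ND) against mean normalized count (log axis) of all 2386 listed genes, with the Ly6 and Ms4a genes named. The gap around zero is the authors' filter on fold change. Ly6i, Ms4a4c and Ly6c2 have the largest fold changes of the members, and the 3 members with negative fold changes have mean counts of 22.8 or less.

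By distance in the plane of log2 fold change and log2 mean count, which uses 1 comparison only, the called protein-coding gene nearest to Ly6c2 was Ms4a4c (0.40 log2 units), followed by Ccl22 (0.54) and Ifi209 (0.65). Nearest to Ms4a4c were Ifi209 (0.32), Ly6c2 (0.40) and Zbp1 (0.56), and nearest to Ly6i were Nos2 (0.45), Ms4a4c (0.67) and Ifi209 (0.74). Ms4a6b lay nearest to Ciita (0.05), Gzmb (0.09) and Vdr (0.14), and Ms4a6c lay near Gbp3 (0.10) and Crybg1 (0.12). Ms4a4b stood beside BC035044, Adgrg5 and Sh2d1b1, Ms4a14 beside Atp10a and Klra8, and Ms4a1 beside Klra3, Ptprcap and Tbx21, all within 0.08 log2 units. Ms4a2 stood beside Sidt1, Rnf186 and Ppef2 and Ms4a4d beside Obsl1, Il17rd and Msh5, within 0.13 log2 units. Ly6g6d lay within 0.12 log2 units of Dpf3, Sema6c and Cngb1, and the called protein-coding genes nearest to Ly6f were Gm21541 (0.74), Cyp4a32 (0.87) and A730049H05Rik (0.87).

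The cell types for which the members are known were followed by lists of other markers. Of 18 classical monocyte markers besides Ly6c2 and Ms4a4c, 5 rose, 2 fell and 11 have no value by the authors' deposited table, beside 526 higher and 1464 lower of the 17531 genes tested. Plac8 (1.76 ± 0.18), Itga4 (1.28 ± 0.15) and the monocyte chemokine receptor gene Ccr2 (1.44 ± 0.20) were higher in the authors' deposited table. The median log2 fold change of the 7 listed markers was 1.28 in the authors' deposited table, beside -1.55 over all listed genes. Their summed implied level was 50450 normalized counts in WD and 96426 in ND, of which Fn1 alone made up 40559 in WD and 88801 in ND (-1.13 ± 0.27 in the authors' deposited table). Of 12 patrolling monocyte markers only Ace was listed (1.20 ± 0.17 in the authors' deposited table), and of 15 neutrophil markers none was. The part of monocyte numbers in the values of Ly6c2 and Ms4a4c was not tested.

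Markers of lymphocytes stood as follows, beside 3.0% called higher and 8.35% called lower of all 17531 genes tested. Of 22 B cell and plasma cell markers besides Ms4a1, Ighm (1.17 ± 0.24) was the 1 listed in the authors' deposited table, and Cd79a and Cd79b were not in it. Immunoglobulin variable segments were not in this marker list, and the authors' deposited table has some of them higher and some lower. Of 18 T cell markers besides Ms4a4b and Ms4a6b, the authors' deposited table has 8 that rose, none that fell and 2 listed without passing. The other 8 have no value, among them Cd3d, Cd3e, Cd3g, Cd4 and Lck. Trbc2, a T cell receptor chain gene, was among those that rose (1.66 ± 0.43 in the authors' deposited table). The summed implied level of the 10 listed T cell markers was 362 normalized counts in WD and 153 in ND. Ms4a6b alone had larger implied means, 937 in WD and 308 in ND, and which cells hold its RNA was not tested. The authors' deposited table has 11 of 14 NK cell markers higher, none lower and 3 without a value. The smallest p-values were those of Klrk1 (1.87 ± 0.20), Klrd1 (1.38 ± 0.21), Gzmb (1.51 ± 0.24) and Il2rb (1.42 ± 0.23). The summed implied level of the 11 listed NK cell markers was 3444 normalized counts in WD and 1232 in ND. Whether these cells account for any part of the Ms4a4b, Ms4a6b or Ms4a1 values was not tested.

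Mast cell markers moved with Ms4a2. Of the 11 others, the authors' deposited table has 6 higher, 1 lower and 4 without a value, and the median log2 fold change of the 7 listed was 3.75. Of all 17531 genes tested, 3.0% were called higher and 8.35% lower. Cma1 (3.38 ± 0.64), Cpa3 (3.75 ± 0.74) and Tpsb2 (3.85 ± 0.89), all mast cell proteases, were higher in the authors' deposited table, while Kit (-1.74 ± 0.15), which other cells also express, was lower. The summed implied level of the 7 listed markers was 924 normalized counts in WD and 1312 in ND, of which Kit made up 379 in WD and 1267 in ND. Fcer1a, the alpha chain of the IgE receptor that Ms4a2 completes, stood at 1.94 ± 0.62 in the authors' deposited table, beside 1.99 ± 0.72 for Ms4a2. Like Ms4a2, Fcer1a was at low counts, with implied means of 15.1 normalized counts in WD and 3.93 in ND. The part of mast cells or basophils in the Ms4a2 value was not tested.

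Of the interferon-stimulated genes, a group that includes several Ly6 genes, the authors' deposited table has 10 higher and 3 lower of 32, and 19 have no value. Ly6a and Ly6e, the Ly6 genes in that list, were among those not listed. Over all 17531 genes tested, the shares called were 3.0% higher and 8.35% lower. Oas3 (1.89 ± 0.20), Mx1 (2.20 ± 0.25) and Zbp1 (1.96 ± 0.25) were higher and Cxcl10 (-1.51 ± 0.20) was lower in the authors' deposited table. For conventional dendritic cells the authors' deposited table has 5 markers higher and 2 lower of 15, among them Ccr7 (1.80 ± 0.27), Klrb1b (1.77 ± 0.29), Zbtb46 (-1.13 ± 0.14) and Dpp4 (-2.29 ± 0.27). Runx2 (1.10 ± 0.13) and Ccr9 (1.15 ± 0.37) were the 2 listed of 11 plasmacytoid dendritic cell markers in the authors' deposited table. All 15 sinusoidal endothelial markers fell by the authors' deposited table, with log2 fold changes between -3.85 and -1.38, and the smallest p-values were those of Egfl7 (-3.50 ± 0.20), Fcgr2b (-1.38 ± 0.091), Bmp2 (-3.10 ± 0.23) and Tie1 (-3.08 ± 0.23). Their summed implied level was 17441 normalized counts in WD and 101972 in ND. Its part in the lower Gpihbp1, Ly6g6d and Ms4a4d values, or in the values of the higher members, was not tested. This list too was chosen with earlier results of these data known, so its count is only a description.

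**Figure D5:**
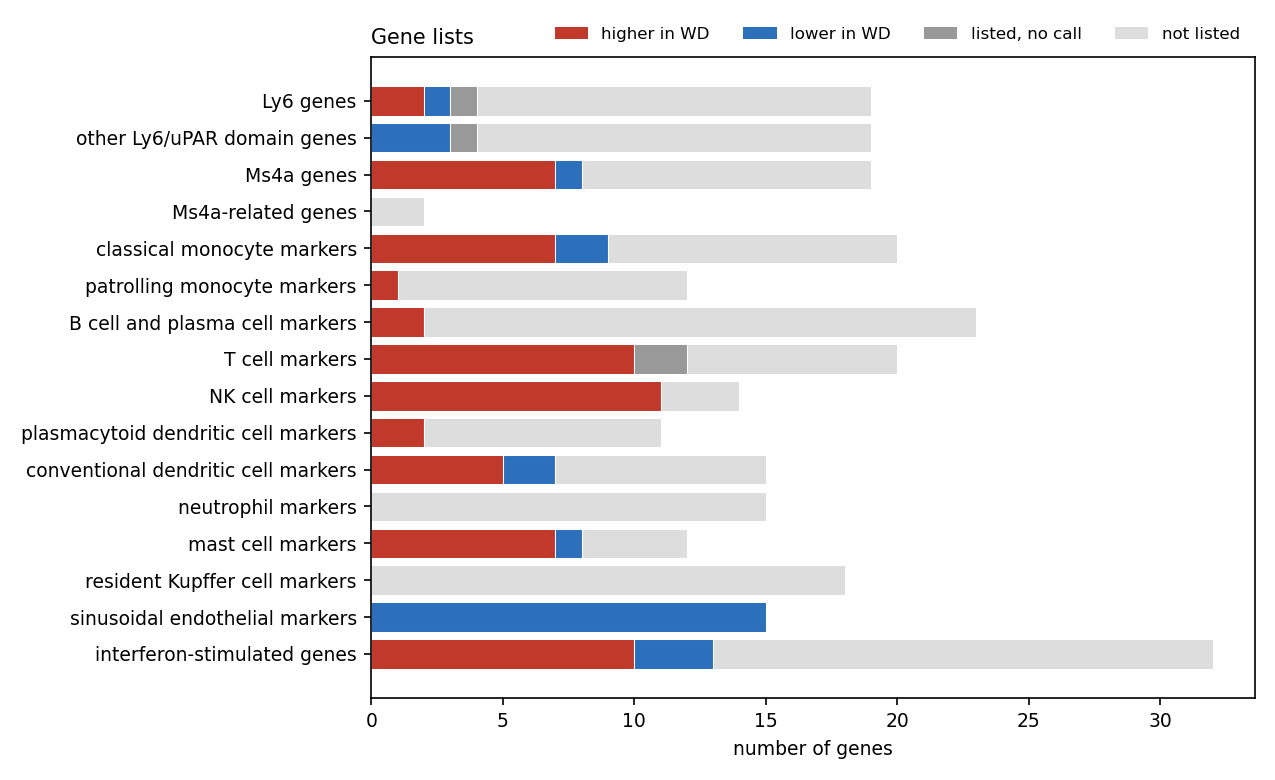
Number of genes in each list that were higher in WD, lower in WD, listed without a call, or not in the authors' table. The Ms4a list has 7 higher and 1 lower gene of 19, the Ly6 list 2 higher and 1 lower of 19, and the other Ly6 domain genes 3 lower and none higher of 19. Of all 17531 genes tested, 3.0% were called higher and 8.35% lower.

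The authors' own enrichment of terms among genes with a positive fold change held 5 of the members, all Ms4a genes and none a Ly6 gene. Among the 373 GO terms that the authors' deposited table gives, 9 held a member, and of 78 KEGG terms 2 did. Cell surface receptor signaling pathway held 5 (Ms4a1, Ms4a2, Ms4a6b, Ms4a6c and Ms4a14) among its 21 genes, at a fold enrichment of 8.61 and a Benjamini p of 1.44e-10 in the authors' deposited table. Ms4a1 was also in B cell receptor signaling pathway (20 genes, Benjamini p 1.32e-09 in the authors' deposited table), of which 13 had an adjusted p below 0.05. Ms4a2 was in immune response (58 genes) and in the KEGG term asthma (4 genes, Benjamini p 0.0257) in the authors' deposited table. Ms4a4c, Ms4a4b, Ly6c2 and Ly6i, though higher, were in no term deposited.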

How the data were processed

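RNA was sequenced from 4 WD and 4 ND libraries of polyadenylated RNA, per the labels' protocols. The deposited file is 1 table of the authors' own comparison. Per the submitters' processing notes, the build was mm10 and the tools were DESeq, edgeR, featureCounts, HISAT2, STAR, STAR-Fusion and StringTie; their roles, order and versions are not known here. Per the file headers, the columns carry the names that DESeq2 gives its results. The signal deposited for each gene is its mean normalized count over all libraries. The deposited log2 fold change and its SE are WD over ND on the log2 scale, and the deposited test score is their quotient, within 7.06e-08. The deposited p-value and adjusted p-value complete a row, and the adjusted p was empty for 77 genes with mean counts of at most 2.02. The deposited GO fold enrichment ratio, term sizes and Benjamini p-values were also used.

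Nothing was refitted. Python 3.11.15 was used to compute 95% intervals as the log2 fold change ± 1.96 SE and group means implied by the overall mean and the fold change for groups of equal size, which hold only if the fold change was not shrunken. The number of tested genes, 17531, counts those that entered the adjustment of p. It is the whole number that made most ranks (p times that number over adjusted p) whole within 0.02, for 91.0% of genes with an adjusted p. The step was tested on simulated data. Genes were located by Ensembl ID in GENCODE M21 (GRCm38, the same assembly as mm10), where all 2386 IDs were found. Transcripts were compared by exact windows and by local alignment (Biopython 1.88) within GENCODE M21, and promoters are from RefSeq (GRCm38.p6). Library totals and values per library are not in the table, so depth is unknown and precision is the authors' SE; that each library is 1 mouse is taken from the design, and if not, p-values measure only the spread between samples. The members, lists and limits were chosen with earlier results of these data known. Named genes were the members, all listed genes of the family lists, up to 4 called genes per other list by p, the 3 nearest called genes per member, and listed genes within 1 Mb; Fn1, Fcer1a and genes named as not listed were added after their values were seen. Some genes that this rule names are not reported here. Alternatives were other limits on adjusted p, a count minimum of 10, intervals beyond 2-fold, wider family lists and a window of 200 kb.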

Additional observations from a re-analysis of the deposited data

How the results depend on the processing

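With an adjusted p below 0.01 or 0.001, 7 members stayed higher (Ms4a1 and Ms4a2 did not), with a mean count of at least 10, 8 did, and with the unadjusted limit or the wider family lists, 9 did. With a 95% interval wholly beyond 2-fold, 4 higher members were left (Ly6c2, Ly6i, Ms4a4c and Ms4a6b) and 0 lower ones. The 2 lower members were 0 at an adjusted p below 0.001, 1 (Ms4a4d) with a mean count of at least 10, and 5 with the wider family lists, which add Gpihbp1, Cd59a and Lypd6; at the unadjusted limit they were 3. These changes follow from the limits themselves. A window of 200 kb held 9 listed neighbours in place of 24. Centring on Kupffer cell markers was not run, because none was listed. Leaving out libraries, another normalization and another count model could not be run, since the table holds no value per library. No paired analysis was possible because the table holds no value per library and the labels give no shared replicate numbers.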
